A study of Homo sapiens with 8 samples.

Results

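The genes described here are the collagen chain genes, the genes whose symbol is COL, a type number, A and a chain number. They were chosen by symbol alone, and 43 of the 19775 genes measured fitted the rule. The RNA of 8 samples was read with Affymetrix arrays, each sample on its own. T47D is a luminal, estrogen receptor positive breast cancer line, and MDA-MB-231 is a triple-negative breast cancer line with mesenchymal features. Each line carried either a lentiviral control hairpin (shCtrl) or a lentiviral hairpin against XBP1 (shXBP1), which gave 4 groups of 2 arrays. Puromycin at 2 µg/ml had selected the infected cells, and the medium held 10% fetal bovine serum. All 4 groups, controls included, were kept for 24 h without glucose at 0.1% O2, so no value below comes from unstressed cells. The labels call the replicates biological but do not say whether they were separate infections or cultures, and 1 hairpin name per target is given. A p-value therefore speaks for the spread between these arrays, which may be technical.

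Collagens are secreted proteins built from 3 chains wound into a triple helix. The chains enter the endoplasmic reticulum, where prolines and lysines are hydroxylated and the helix folds with the help of chaperones before export. Fibrillar collagens form the fibres of connective tissue, type IV collagens form the sheet of basement membranes, and fibril-associated collagens (FACIT) sit on the surface of fibres. XBP1 encodes a transcription factor that serves the unfolded protein response, made active when the sensor IRE1 splices its mRNA, and it raises the folding and export capacity of the endoplasmic reticulum. Fibroblasts make most of the collagen of a breast tumour, and carcinoma cells make some chains themselves, type IV chains among them.

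At its brightest probe set, XBP1 mRNA was lower in every shXBP1 array than in the controls of its line. In T47D it read 12.41 and 12.56 with shCtrl and 7.52 and 7.16 with shXBP1 (log2 change -5.15, SE 0.17, limma with Benjamini-Hochberg adjustment, adjusted p = 8.68e-06). In MDA-MB-231 it read 10.83 and 10.69 with shCtrl and 7.13 and 6.69 with shXBP1 (log2 change -3.85, SE 0.17, adjusted p = 6.93e-05). A second, dimmer XBP1 probe set changed by -0.23 in T47D and 0.19 in MDA-MB-231, neither called, and the mean over both changed by -2.69 and -1.83 (adjusted p = 3.84e-06 and 4.42e-05). The lines carried the markers their names imply. All 10 luminal markers, XBP1 among them, were called lower in MDA-MB-231 shCtrl than in T47D shCtrl, against 25.2% of all genes. Of 10 mesenchymal markers 9 were called higher, against 23.7% of all genes, the exception being FN1. Array medians lay between 5.87 and 5.91, and replicate arrays correlated at 0.996 to 0.998 across all genes and at 0.977 to 0.996 across the collagen genes.

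Values are log2 RMA expression, and a gene is represented by its brightest probe set, that with the highest mean level. A level of 1 probe set cannot be set against that of another, so levels are compared between groups within a gene. A change is the mean of the 2 shXBP1 arrays minus the mean of the 2 shCtrl arrays, its SE comes from the spread within all 4 groups, and a gene was called changed at an adjusted p under 0.05 over all 19775 genes. The median of all probe sets was 5.96, and folds that start near or under it can be compressed by RMA and may understate the change.

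Of the 43 genes, 22 had a group mean over 6, against 68% of all genes. COL5A3 (highest group mean 6.33) and COL22A1 (6.13) lay just inside that level, and COL23A1 (5.96) and COL9A1 (5.94) just outside it. The other 21 genes, COL1A2, COL3A1, COL6A3 and COL10A1 among them, read between 3.12 and 6.08 on every array. COL1A2, the partner chain of COL1A1 in type I collagen, read 5.05 and 5.53 in T47D shCtrl and 5.05 and 5.35 in MDA-MB-231 shCtrl. COL3A1, the single chain of type III collagen, read 5.05 and 4.68 in T47D shCtrl and 4.63 and 5.01 in MDA-MB-231 shCtrl. Both stayed below the probe set median in all 8 arrays.

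**Figure D1:**
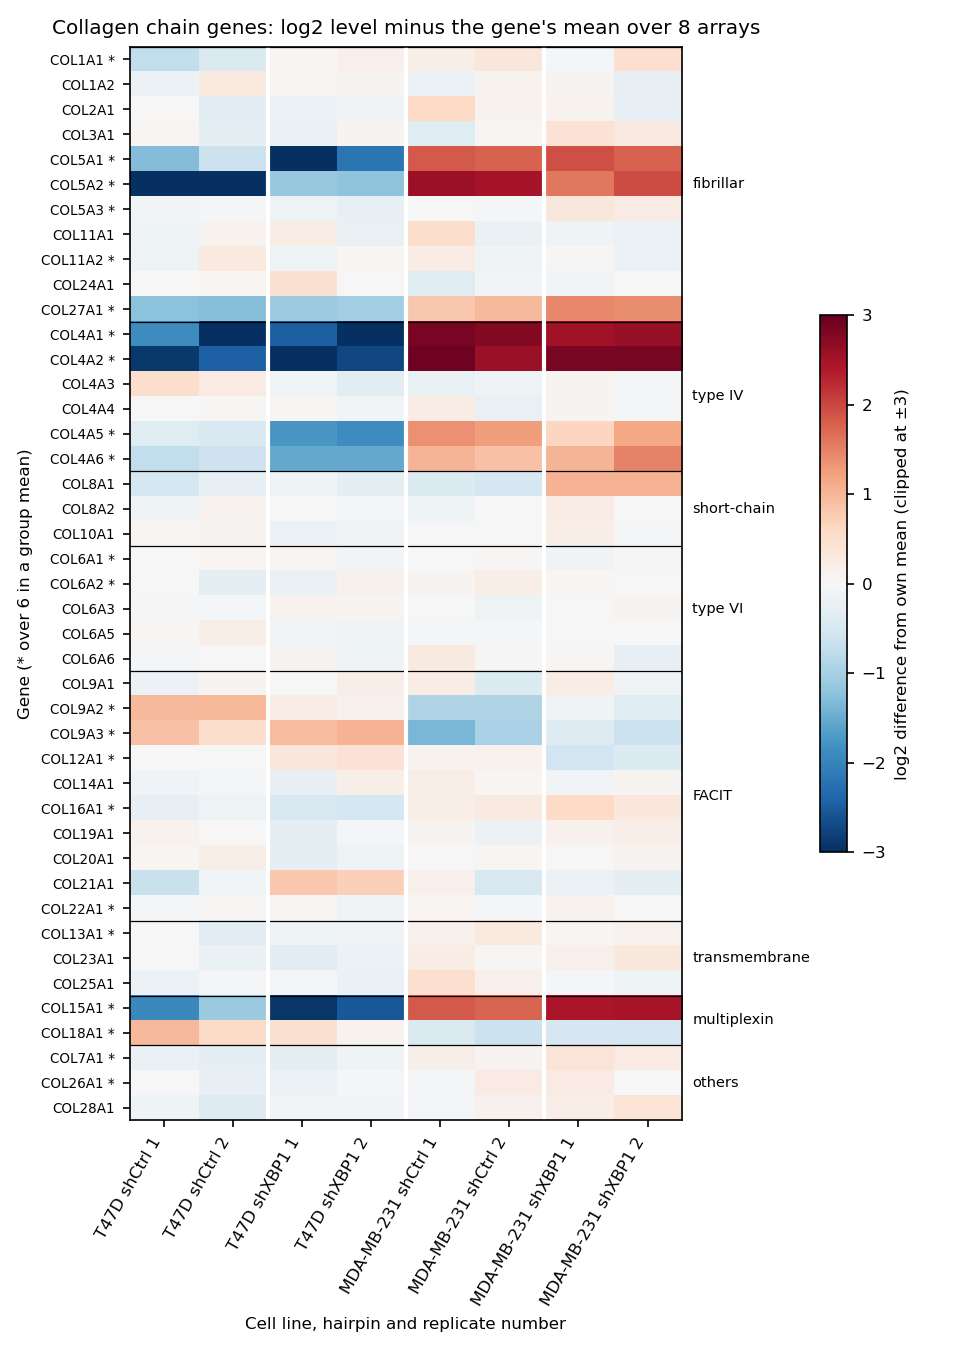
Level of each of the 43 collagen chain genes (rows, grouped by class) on each of the 8 arrays (columns) as the log2 difference from the gene's own mean over the 8 arrays, with colours clipped at 3 either way; a star marks the 22 genes over 6 in a group mean. COL4A1, COL4A2, COL5A1, COL5A2 and COL15A1 are red on all 4 MDA-MB-231 arrays and blue on all 4 T47D arrays, and type VI genes are near white throughout.

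Sequences upstream of genes on which the results turn are given first, because COL4A1 and COL4A2 are transcribed away from each other from a shared stretch of DNA, as are COL4A5 and COL4A6, and because COL9A2 and COL12A1 changed in opposite directions in the lines. They come from RefSeq on GRCh38.p14. The type IV pairs start 126 bases apart for COL4A1 and COL4A2 on chromosome 13, 379 bases apart for COL4A6 and COL4A5 on chromosome X, and 418 bases apart for COL4A4 and COL4A3 on chromosome 2. The first sequence holds all 126 bases between the starts, chr13:110307158-110307283 on the plus strand. The second holds the 250 bases upstream of COL4A5, chrX:108439588-108439837 on the plus strand, which lie between the starts. The last pair hold the 250 bases upstream of COL9A2, chr1:40317287-40317536 on the minus strand, and of COL12A1, chr6:75206054-75206303 on the minus strand. Capitals mark matches on either strand to CCAAT, to the GC box GGGCGG and to ACGTG, the core shared by several stress response elements.
COL4A1 and COL4A2: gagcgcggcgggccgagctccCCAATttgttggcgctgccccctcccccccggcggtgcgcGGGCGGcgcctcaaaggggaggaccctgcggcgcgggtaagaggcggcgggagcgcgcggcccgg
COL4A6 and COL4A5: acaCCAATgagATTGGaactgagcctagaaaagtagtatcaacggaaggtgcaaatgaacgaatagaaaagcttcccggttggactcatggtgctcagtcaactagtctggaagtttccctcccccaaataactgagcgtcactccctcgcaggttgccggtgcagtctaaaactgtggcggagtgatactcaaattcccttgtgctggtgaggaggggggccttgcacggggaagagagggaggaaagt
COL9A2: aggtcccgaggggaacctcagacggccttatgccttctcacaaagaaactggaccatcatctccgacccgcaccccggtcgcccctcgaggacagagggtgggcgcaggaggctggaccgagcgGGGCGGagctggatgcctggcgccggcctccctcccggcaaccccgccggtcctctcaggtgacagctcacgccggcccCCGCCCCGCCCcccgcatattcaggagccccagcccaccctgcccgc
COL12A1: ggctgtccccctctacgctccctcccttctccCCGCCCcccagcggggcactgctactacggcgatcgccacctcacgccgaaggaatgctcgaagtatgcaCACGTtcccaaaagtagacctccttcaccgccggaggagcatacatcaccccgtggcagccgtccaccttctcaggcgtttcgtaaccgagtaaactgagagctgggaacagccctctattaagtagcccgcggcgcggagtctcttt

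Of the 43 genes, 31 had an upstream sequence in the RefSeq table, and the 250 bases before each start were searched on both strands. COL5A2 and COL8A1 were among the genes without a sequence, so the searches do not cover them. Some of the 31 genes have several starts, which gave 43 windows, a number that is not the 43 genes. CCAAT stood in 11 of these 43 windows (25.6%), windows of both genes in the COL4A1 and COL4A5 pairs included, against 32% of the 35116 windows of all genes. GGGCGG stood in 24 of 43 windows (55.8%), against 42.6% of all windows. ACGTG stood in 7 of 43 windows (16.3%), upstream of COL4A3, COL5A1, COL6A6, COL11A2, COL12A1 and COL15A1, against 18.5% of all windows. The longer element TGACGTG, known as the core of the unfolded protein response element and containing ACGTG, matched 0 of the 43 windows and 1.68% of all windows. The endoplasmic reticulum stress response element, CCAAT and CCACG with 9 bases of any kind between them, also matched 0 of the 43 windows and 0.074% of all windows. These matches describe letters in these windows and are not measured sites.

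With the XBP1 hairpin, COL5A2 and COL12A1 rose in T47D and fell in MDA-MB-231, COL9A2 did the opposite, and the other collagen genes that passed the test did so in 1 line only. In T47D, 11 of 43 collagen genes were called (25.6%), 4 higher and 7 lower, where 29.1% of all genes were called (15.5% higher and 13.5% lower). In MDA-MB-231, 7 of 43 were called (16.3%), 5 higher and 2 lower, where 17.2% of all genes were called (10.6% higher and 6.68% lower). Both shares were near those of all genes. Among the 22 genes over 6, 8 were called in T47D and 6 in MDA-MB-231, where 40.6% and 23.8% of all genes over 6 were called. The arrays of the hairpins did not overlap for 21 of 43 collagen genes in T47D, against 64.1% of all genes, and for 26 of 43 in MDA-MB-231, against 54.5%. The 43 genes had a median change of 0.00 in T47D and of 0.05 in MDA-MB-231, beside -0.02 and 0.03 over all genes. Besides the 3 genes called in both lines, 8 genes were called in T47D alone, 4 in MDA-MB-231 alone and 28 in neither. How many of all genes were called in both lines, or went opposite ways, was not counted. Opposite changes are therefore not shown to be particular to collagen genes.

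**Figure D2:**
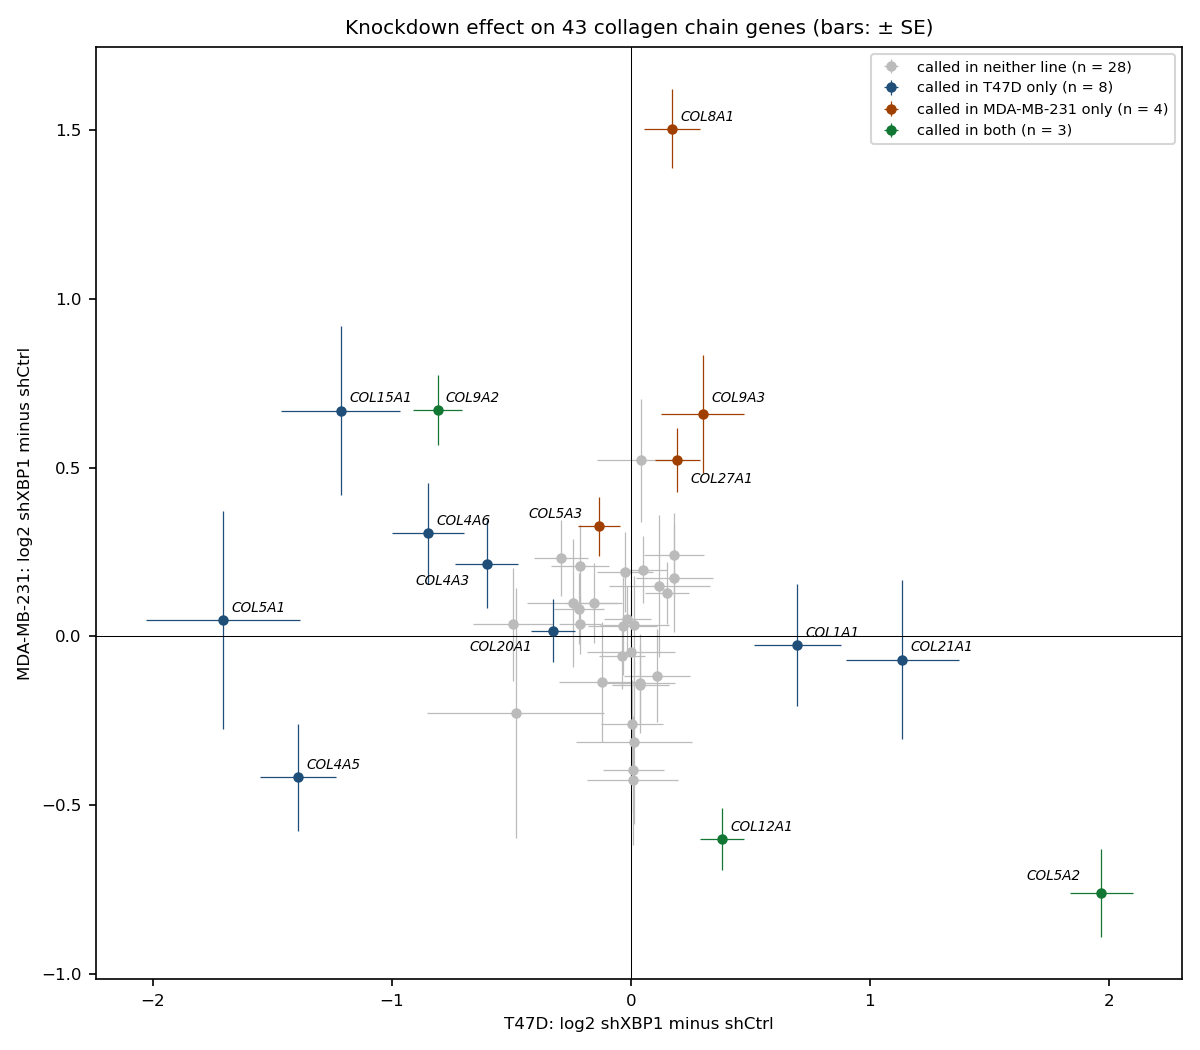
Change of the 43 collagen chain genes on XBP1 knockdown (log2 shXBP1 minus shCtrl) in T47D (x axis) and MDA-MB-231 (y axis), with 1 point per gene and bars of 1 SE; colours give the line in which a gene was called. COL5A2 and COL12A1 lie at lower right (1.97 and 0.38 in T47D, -0.76 and -0.60 in MDA-MB-231) and COL9A2 at upper left (-0.81 and 0.67), so all 3 genes called in both lines went opposite ways. The share of all genes that did so was not counted.

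Of 11 fibrillar genes, 2 rose and 1 fell in T47D, and 2 rose and 1 fell in MDA-MB-231 (median changes 0.01 and -0.03). COL5A2 encodes the second chain of type V collagen, which controls the diameter of type I fibres. It read 6.08 and 5.95 in T47D shCtrl, 8.01 and 7.96 in T47D shXBP1, 11.73 and 11.65 in MDA-MB-231 shCtrl and 10.74 and 11.12 in MDA-MB-231 shXBP1. The 4 groups did not overlap, and T47D shXBP1 stood clear of its control while remaining below both MDA-MB-231 groups. COL5A2 rose 3.91-fold in T47D (log2 change 1.97, SE 0.13, limma adjusted p = 5.76e-05) and fell 1.69-fold in MDA-MB-231 (log2 change -0.76, SE 0.13, adjusted p = 0.00688). Its second probe set rose by 2.09 in T47D and fell by 0.80 in MDA-MB-231 on the log2 scale, both called with every probe set tested.

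COL5A1 encodes the chain that pairs with COL5A2 in type V collagen. Its brightest probe set read 6.17 and 6.83 in T47D shCtrl and 4.29 and 5.29 in T47D shXBP1, against 9.31 and 9.25 in MDA-MB-231 shCtrl and 9.42 and 9.24 in MDA-MB-231 shXBP1. The T47D replicates were far apart, with SDs of 0.47 and 0.71, but did not overlap between hairpins. It fell in T47D (log2 change -1.71, SE 0.32, limma adjusted p = 0.00541), and in MDA-MB-231 the change was 0.05 (95% interval -0.70 to 0.80, adjusted p = 0.946). The probe sets of COL5A1 disagreed. The other 2 changed by 0.27 and -0.07 in T47D, neither called, and 1 of them rose by 0.87 in MDA-MB-231. Averaged over its probe sets, COL5A1 changed by -0.50 in T47D (adjusted p = 0.00742). The averaged change in MDA-MB-231 was 0.41 (adjusted p = 0.0298).

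COL1A1, the major chain of type I collagen, read 8.97 and 9.27 in T47D shCtrl and 9.77 and 9.87 in T47D shXBP1. In MDA-MB-231 the shCtrl arrays read 9.89 and 10.05 and the shXBP1 arrays 9.68 and 10.21, which overlap. COL1A1 rose in T47D (log2 change 0.70, SE 0.18, limma adjusted p = 0.0223), and all 5 of its probe sets changed upward there, 2 of them called. Leaving out an array ended the COL1A1 call in 3 cases, those of shCtrl replicate 1 in T47D (adjusted p = 0.130) and of shXBP1 replicates 1 (adjusted p = 0.0747) and 2 (adjusted p = 0.116) there, and the mean over probe sets was 0.36 (adjusted p = 0.0138). In MDA-MB-231 COL1A1 changed by -0.03 (95% interval -0.45 to 0.39).

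COL27A1, a fibrillar chain of cartilage, read 8.79 and 8.96 in MDA-MB-231 shCtrl and 9.42 and 9.37 in MDA-MB-231 shXBP1, without overlap. It read 6.76 and 6.71 in T47D shCtrl and 6.89 and 6.97 in T47D shXBP1. COL27A1 rose in MDA-MB-231 (log2 change 0.52, SE 0.09, limma adjusted p = 0.00811), where 2 of 5 probe sets were called, and the mean over probe sets was 0.28 (adjusted p = 0.04). COL5A3, the third type V chain, read 6.02 and 5.98 in MDA-MB-231 shCtrl and 6.36 and 6.29 in shXBP1. Its rise there (log2 change 0.33, SE 0.09, adjusted p = 0.039) was lost without any 1 of the 8 arrays, with adjusted p between 0.0619 and 0.133, and with probe sets averaged (0.18, adjusted p = 0.285). COL11A2, over 6 in every array at 6.84 to 7.32, was not called in either line, nor were COL1A2, COL2A1, COL3A1, COL11A1 and COL24A1, which read below 6.

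Of 6 type IV genes, 3 fell in T47D and none was called in MDA-MB-231, where 1 had an unadjusted p under 0.05 (limma), with median changes of -0.54 and 0.06. Of all genes, 13.5% were called lower in T47D. Only COL4A5 of the 3 kept its call with probe sets averaged. COL4A5 and COL4A6 encode chains that meet in one network of epithelial basement membranes. COL4A5 read 8.05 and 7.96 in T47D shCtrl, 6.68 and 6.54 in T47D shXBP1, 9.80 and 9.68 in MDA-MB-231 shCtrl and 9.07 and 9.57 in MDA-MB-231 shXBP1. Both T47D shXBP1 arrays lay well under their controls, and COL4A5 fell 2.63-fold (log2 change -1.39, SE 0.16, limma adjusted p = 0.000493). In MDA-MB-231 the change was -0.42 (95% interval -0.79 to -0.05, adjusted p = 0.121). Its other probe set, at a mean of 4.61, changed by 0.11 in T47D, and the mean over both was -0.64 (adjusted p = 0.00315).

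COL4A6 read 6.25 and 6.38 in T47D shCtrl and 5.47 on both T47D shXBP1 arrays. In MDA-MB-231 it read 8.01 and 7.87 with shCtrl and 8.01 and 8.47 with shXBP1. It fell in T47D (log2 change -0.85, SE 0.15, limma adjusted p = 0.00384) and changed by 0.31 in MDA-MB-231 (adjusted p = 0.220). Its 2 dimmer probe sets changed by 0.27 and 0.22 in T47D, so the mean over the 3 was -0.12 and the call was lost (adjusted p = 0.479). In MDA-MB-231 the dimmest of them rose by 1.08, and the mean over the 3 was 0.48 (adjusted p = 0.0178). COL4A3, a chain of kidney and lung basement membranes, fell in T47D from 5.06 and 4.78 to 4.44 and 4.19 (log2 change -0.60, SE 0.13, adjusted p = 0.0101), and in MDA-MB-231 it read 4.30 and 4.37 with shCtrl and 4.61 and 4.48 with shXBP1. All of these lie below the probe set median, only 1 of 7 COL4A3 probe sets was called, and the mean over them was -0.12 (adjusted p = 0.419). Leaving out T47D shXBP1 replicate 2 (adjusted p = 0.0789) or T47D shCtrl replicate 1 (adjusted p = 0.066) also ended the COL4A3 call.

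COL4A1 and COL4A2 encode the chains of the type IV network found in nearly all basement membranes. COL4A1 read 5.36 and 4.26 in T47D shCtrl, 4.77 and 3.89 in T47D shXBP1, 10.09 and 10.01 in MDA-MB-231 shCtrl and 9.78 and 9.86 in MDA-MB-231 shXBP1. COL4A2 read 5.15 and 5.60, 4.93 and 5.32, 10.96 and 10.64, and 10.91 and 10.90 in the same order. Both were low on all 4 T47D arrays and high on all 4 MDA-MB-231 arrays. Neither was called on knockdown. COL4A1 changed by -0.48 in T47D (95% interval -1.34 to 0.38) and -0.23 in MDA-MB-231 (-1.09 to 0.63), and COL4A2 by -0.24 (-0.69 to 0.20) and 0.10 (-0.34 to 0.54). COL4A4 was below the probe set median throughout and not called.

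Of 10 fibril-associated (FACIT) genes, 2 rose and 2 fell in T47D, and 2 rose and 1 fell in MDA-MB-231 (median changes 0.01 and 0.10). COL12A1 encodes the long chain of type XII collagen, which links fibres of type I collagen to other matrix. It read 11.10 and 11.12 in T47D shCtrl and 11.45 and 11.54 in T47D shXBP1. In MDA-MB-231 it read 11.22 and 11.21 with shCtrl and 10.53 and 10.69 with shXBP1. At this brightest probe set the 4 control arrays of both lines lay between 11.10 and 11.22, and the knockdown arrays lay above them in T47D and below them in MDA-MB-231. Other COL12A1 probe sets did differ between the control groups, with differences (MDA-MB-231 minus T47D) from -1.14 to 1.60. COL12A1 rose in T47D (log2 change 0.38, SE 0.09, limma adjusted p = 0.0162) and fell in MDA-MB-231 (log2 change -0.60, SE 0.09, adjusted p = 0.00423).

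All 5 COL12A1 probe sets rose in T47D, by 0.38 to 1.47, and all 5 changed downward in MDA-MB-231, by -0.61 to -0.18, 2 of them called. With probe sets averaged, the T47D change of COL12A1 was 0.70 (adjusted p = 0.000758). At the brightest probe set the T47D call was lost without shCtrl replicate 1 (adjusted p = 0.0771), shCtrl replicate 2 (adjusted p = 0.0638), shXBP1 replicate 1 (adjusted p = 0.0556) or shXBP1 replicate 2 (adjusted p = 0.112). The fall in MDA-MB-231 was called without any 1 array.

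COL9A2 encodes a chain of type IX collagen, which coats type II fibres in cartilage. It read 7.76 and 7.79 in T47D shCtrl, 7.02 and 6.92 in T47D shXBP1, 5.89 on both MDA-MB-231 shCtrl arrays and 6.68 and 6.44 in MDA-MB-231 shXBP1. Both knockdown groups lay between the control groups of the 2 lines, and the 4 groups did not overlap. COL9A2 fell in T47D (log2 change -0.81, SE 0.10, limma adjusted p = 0.000854) and rose in MDA-MB-231 (log2 change 0.67, SE 0.10, adjusted p = 0.00431). Its dimmer probe set changed in the same directions, by -0.22 and 0.30, and was not called. Averaged over both, COL9A2 changed by -0.51 in T47D (adjusted p = 0.00212). The averaged change in MDA-MB-231 was 0.48 (adjusted p = 0.00577).

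COL9A3, the third chain of type IX collagen, read 7.77 and 7.41 in T47D shCtrl, 7.84 and 7.94 in T47D shXBP1, 5.51 and 5.92 in MDA-MB-231 shCtrl and 6.51 and 6.24 in MDA-MB-231 shXBP1. It rose in MDA-MB-231 (log2 change 0.66, SE 0.17, limma adjusted p = 0.039). The call was lost without T47D shXBP1 replicate 1 or 2 (adjusted p = 0.0681 each), MDA-MB-231 shCtrl replicate 1 (adjusted p = 0.175), shXBP1 replicate 1 (adjusted p = 0.188) or shXBP1 replicate 2 (adjusted p = 0.0583). It was also lost with only the 4 MDA-MB-231 arrays in the fit (adjusted p = 0.0777). In T47D COL9A3 changed by 0.30 (adjusted p = 0.264), and COL9A1, the first chain of type IX, was not called in either line.

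COL21A1, with 1 probe set below the median of all probe sets, read 3.77 and 4.35 in T47D shCtrl and 5.24 and 5.15 in T47D shXBP1. In MDA-MB-231 it read 4.59 and 3.97 with shCtrl and 4.27 and 4.15 with shXBP1. It rose in T47D (log2 change 1.14, SE 0.24, limma adjusted p = 0.00839), a call lost without shXBP1 replicate 1 (adjusted p = 0.0531) or shCtrl replicate 1 (adjusted p = 0.0502). COL20A1 read 5.72 and 5.84 in T47D shCtrl and 5.40 and 5.51 in shXBP1. Its fall (log2 change -0.33, SE 0.09, adjusted p = 0.0324) was lost without any 1 of these 4 arrays, with adjusted p between 0.0598 and 0.194, and the mean over probe sets was -0.05 (adjusted p = 0.796). COL16A1, at 6.48 to 7.60 over the arrays, and COL22A1, at 5.97 to 6.19, were not called in either line.

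COL8A1 and COL8A2 form hexagonal networks such as that under the corneal endothelium. COL8A1 read 3.46 and 3.74 in T47D shCtrl, 3.86 and 3.69 in T47D shXBP1, 3.56 and 3.48 in MDA-MB-231 shCtrl and 5.02 and 5.03 in MDA-MB-231 shXBP1. Only the last group stood apart, and even it stayed under the probe set median. COL8A1 rose 2.84-fold in MDA-MB-231 (SE 0.12 on the log2 scale, limma adjusted p = 0.00028), at 1 of its 3 probe sets, and the mean over the 3 was 0.42 (adjusted p = 0.01). COL8A2 and COL10A1 were not called in either line.

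COL15A1 and COL18A1, the multiplexins, are collagens of the basement membrane zone, and COL18A1 is the source of the fragment endostatin. COL15A1, with 1 probe set, read 4.87 and 5.71 in T47D shCtrl, 3.88 and 4.26 in T47D shXBP1, 8.65 and 8.56 in MDA-MB-231 shCtrl and 9.25 and 9.29 in MDA-MB-231 shXBP1. It fell in T47D (log2 change -1.21, SE 0.25, limma adjusted p = 0.00799). Without T47D shXBP1 replicate 1 the call was lost (adjusted p = 0.0609), and without shCtrl replicate 2 the change was -0.79 (adjusted p = 0.0178). In MDA-MB-231 COL15A1 changed by 0.67 (adjusted p = 0.117), with no overlap between the hairpins. The rise was called with only the 4 MDA-MB-231 arrays in the fit (limma adjusted p = 0.0194). It was also called with a trended and robust variance model (adjusted p = 0.0432). COL18A1 read 7.07 and 6.67 in T47D shCtrl and 6.56 and 6.20 in shXBP1 (log2 change -0.49, adjusted p = 0.0636), and 5.67 and 5.45 against 5.60 and 5.60 in MDA-MB-231. Its fall in T47D was called with probe sets averaged (-0.40, limma adjusted p = 0.0343). So it was in a fit of only the genes over 6 (adjusted p = 0.0438).

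None of the 5 type VI genes, whose chains form beaded filaments around cells, was called in either line at its brightest probe set, with 1 at an unadjusted p under 0.05 in T47D and 0 in MDA-MB-231 (limma). COL6A1 read between 6.69 and 6.85 on all 8 arrays, and its changes had 95% intervals of -0.26 to 0.19 in T47D and -0.28 to 0.17 in MDA-MB-231. COL6A2 read between 6.28 and 6.75. Its other probe set changed by -0.29 in T47D and 0.22 in MDA-MB-231, neither called. The difference of these changes was called (0.51, limma adjusted p = 0.0465 with every probe set tested). Of the 8 COL6A1 probe sets, 1 stood apart, chosen here after its values were seen, with a mean of 6.70. It fell by 0.77 in T47D and rose by 0.70 in MDA-MB-231, both called with every probe set tested, and the other 7 were called in neither line. The 3 transmembrane genes measured, COL13A1, COL23A1 and COL25A1, were not called at their brightest probe sets. Neither were COL26A1, COL28A1 or COL7A1, the chain of anchoring fibrils, which changed by 0.05 in T47D and 0.20 in MDA-MB-231. A second COL26A1 probe set rose by 0.51 in MDA-MB-231 (limma adjusted p = 0.0469 with every probe set tested).

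**Figure D3:**
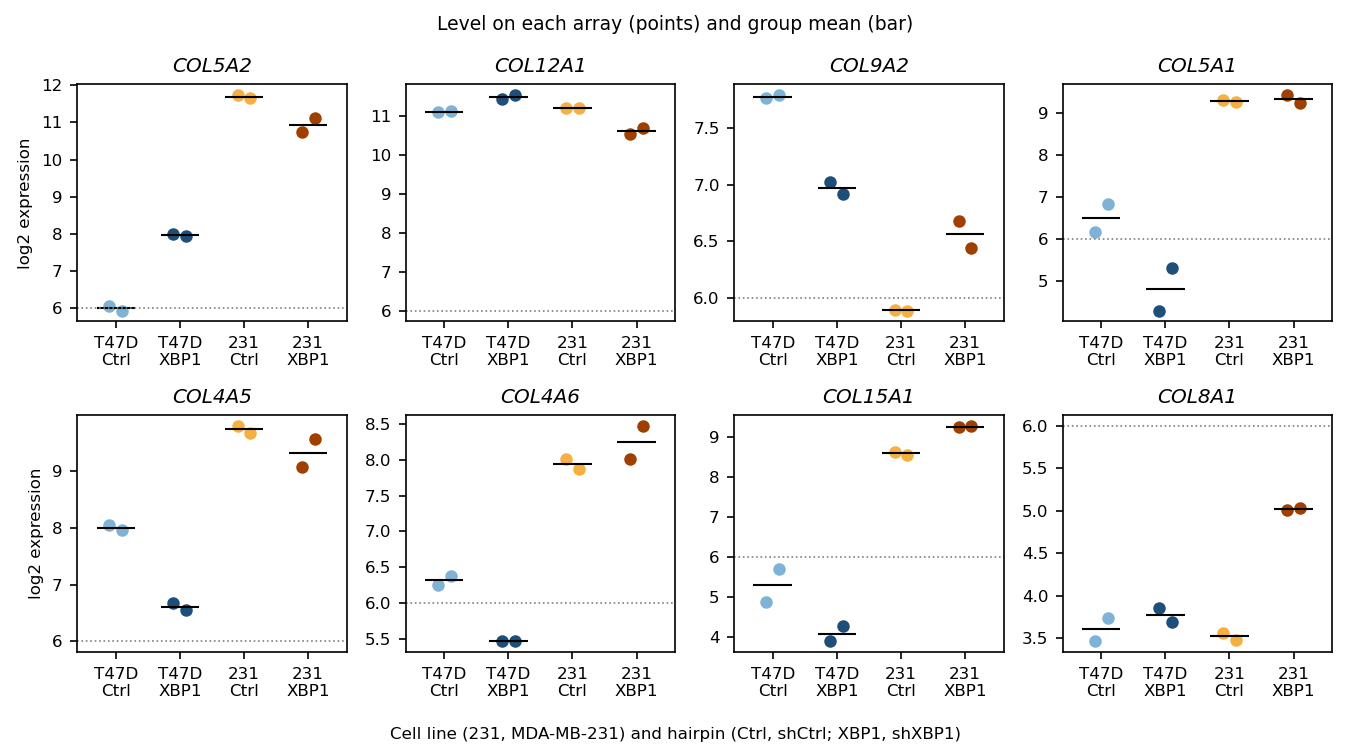
Log2 expression of 8 collagen chain genes on each array (points, 2 per group) with the group mean (bar), by cell line and hairpin; each panel has its own y axis and the dotted line marks 6. COL5A2 and COL12A1 are higher in T47D shXBP1 and lower in MDA-MB-231 shXBP1 than in their controls, COL9A2 shows the opposite, and COL8A1 is raised in MDA-MB-231 shXBP1 alone, at 5.02 and 5.03.

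The change on knockdown was compared between the lines directly, as the MDA-MB-231 change minus the T47D change. It was called for 12 of 43 collagen genes, 9 with the more positive change in MDA-MB-231 and 3 with the more positive change in T47D, where 24.8% of all genes were called (13% and 11.8%). Among the 22 over 6, 9 were called, where 34.3% of all genes over 6 were. COL5A2 had the largest difference (-2.73, SE 0.18, limma adjusted p = 0.000165), and COL12A1 (-0.98, SE 0.13, adjusted p = 0.00158) and COL21A1 (-1.20, SE 0.33, adjusted p = 0.0347) also had the more positive change in T47D. COL9A2 (1.48, SE 0.15, adjusted p = 0.000505), COL8A1 (1.33, SE 0.17, adjusted p = 0.00122), COL4A6 (1.15, SE 0.21, adjusted p = 0.00623) and COL15A1 (1.88, SE 0.35, adjusted p = 0.00705) had it in MDA-MB-231. COL5A2, COL12A1, COL9A2, COL8A1, COL4A6 and COL15A1 were called without any 1 array. With probe sets averaged COL4A6 was called at 0.60 (adjusted p = 0.0213) and COL8A1 was not (0.32, adjusted p = 0.080).

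For the other 6 of the 12 genes the difference between the lines was less firm. The COL4A5 difference (0.97, SE 0.22, limma adjusted p = 0.0163) was lost without T47D shXBP1 replicate 2 (adjusted p = 0.0644), without T47D shCtrl replicate 1 (adjusted p = 0.055) and with probe sets averaged (0.32, adjusted p = 0.189). The COL5A1 difference (1.75, SE 0.46, adjusted p = 0.0268) was lost without T47D shCtrl replicate 2 or any of the 4 MDA-MB-231 arrays, with adjusted p between 0.0602 and 0.0904, and with probe sets averaged it was 0.92 (adjusted p = 0.00305). The COL4A3 difference (0.82, adjusted p = 0.0155) was lost without T47D shXBP1 replicate 2 (adjusted p = 0.0609) or MDA-MB-231 shXBP1 replicate 1 (adjusted p = 0.0542) and with probe sets averaged (0.10, adjusted p = 0.669). The COL5A3 difference (0.46, adjusted p = 0.0298) was lost without any 1 array other than MDA-MB-231 shXBP1 replicate 2 and with probe sets averaged (0.21, adjusted p = 0.355), and COL16A1 (0.52, adjusted p = 0.0471) was lost without any 1 array other than the same one. COL21A1 was lost without any 1 array other than T47D shCtrl replicate 2 and MDA-MB-231 shCtrl replicate 2, with adjusted p up to 0.103. For COL5A3 and COL16A1 adjusted p reached 0.118 and 0.140.

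**Figure D4:**
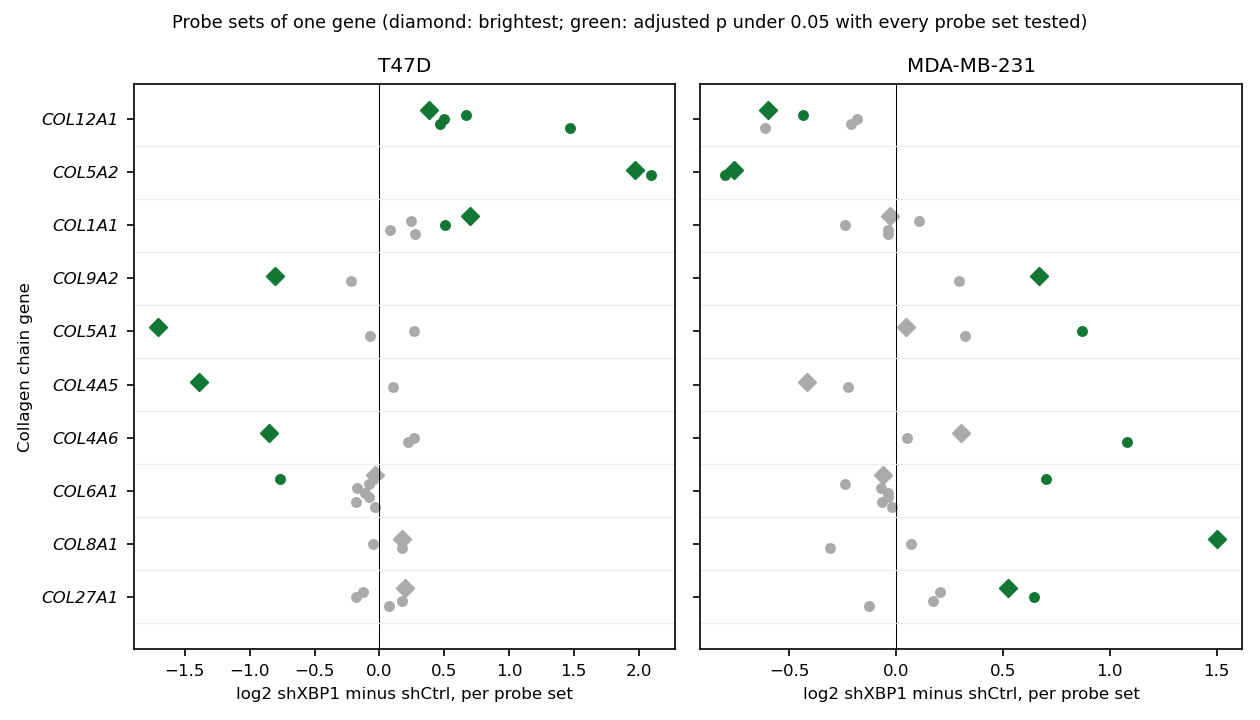
Change on XBP1 knockdown (log2 shXBP1 minus shCtrl, x axis) for every probe set of 10 collagen chain genes (rows) in T47D (left) and MDA-MB-231 (right); diamonds are the brightest probe sets and green marks an adjusted p under 0.05 with every probe set tested. Probe sets of COL5A2 and of COL12A1 fall on one side of 0 in each line, whereas those of COL5A1, COL4A5 and COL4A6 fall on both sides in T47D.

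More collagen genes were called between the lines than between the hairpins, as among all genes. With shCtrl, 17 of 43 collagen genes were called, 13 higher and 4 lower in MDA-MB-231, where 49% of all genes were called (23.7% higher and 25.2% lower). With shXBP1, 19 were called, 14 higher and 5 lower, where 50.8% of all genes were called (25.9% higher and 25% lower). The arrays of the lines did not overlap for 28 of 43 collagen genes with shCtrl, against 71% of all genes, and for 29 of 43 with shXBP1, against 73.7%. Among the genes over 6, 15 of 22 were called in each comparison, against 66.2% and 68% of all genes over 6. The median difference over the 43 genes was 0.18 with shCtrl and 0.15 with shXBP1, beside 0.01 and 0.06 over all genes. Of the 23 genes called in at least 1 of these comparisons, 13 were called in both, each in the same direction at its brightest probe set. The 2 comparisons set different arrays against each other but share 1 SE per gene, fitted over all 8 arrays, so their calls are not independent. How many of all genes were called in both was not counted.

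COL5A2 was 51.2-fold higher in MDA-MB-231 than in T47D with shCtrl (log2 difference 5.68, SE 0.13, limma adjusted p = 3.95e-08) and 7.72-fold higher with shXBP1 (2.95, adjusted p = 6.94e-07). COL4A2 was 43.2-fold higher with shCtrl (5.43, SE 0.19, adjusted p = 2.34e-07) and 54.8-fold with shXBP1, and COL4A1 37.7-fold (5.24, SE 0.37, adjusted p = 9.03e-06) and 45.0-fold. T47D levels lay near or below the probe set median for COL5A2 with shCtrl and for COL4A1 and COL4A2 under both hairpins. Folds from such levels can be compressed by RMA, which was not tested for these genes. With shCtrl the second probe sets of COL4A2 and COL4A1 differed by less, 2.34 and 3.59, and that of COL5A2 by 5.62. With probe sets averaged the log2 differences of COL4A2 were 3.89 with shCtrl and 4.33 with shXBP1, and those of COL4A1 were 4.42 and 4.10. COL15A1 was higher by 3.32 with shCtrl and 5.20 with shXBP1, COL5A1 by 2.78 and 4.54, COL27A1 by 2.14 and 2.47, COL4A5 by 1.74 and 2.71, and COL4A6 by 1.62 and 2.78, all on the log2 scale. For all 8 of these genes the 2 lines did not overlap under either hairpin. With probe sets averaged the differences of COL27A1, COL4A5 and COL4A6 were smaller by over 1.5 times, at 1.23, 1.10 and 0.92 with shCtrl, and remained called.

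COL9A2, COL9A3 and COL18A1 went the other way. COL9A2 was lower in MDA-MB-231 by 1.89 log2 units with shCtrl (difference -1.89, SE 0.10, limma adjusted p = 2.22e-06) and by 0.41 with shXBP1 (difference -0.41, adjusted p = 0.0108). With probe sets averaged the shCtrl difference was -1.07 (adjusted p = 9.32e-06), and the dimmer probe set alone differed by -0.24, which was not called. The smaller difference was lost without T47D shXBP1 replicate 1 or MDA-MB-231 shXBP1 replicate 2 (adjusted p = 0.0759 and 0.0503). It was also lost with probe sets averaged (-0.07, adjusted p = 0.538). With shXBP1 the dimmer COL9A2 probe set went the other way, called higher in MDA-MB-231 (0.27, adjusted p = 0.0434 with every probe set tested). COL9A3 differed by -1.87 and -1.51 and COL18A1 by -1.31 and -0.78, all 4 called, with COL18A1 at -0.80 and -0.49 when its probe sets were averaged. COL1A1 was higher in MDA-MB-231 with shCtrl (0.85, adjusted p = 0.00472) and did not pass with shXBP1 (0.13, adjusted p = 0.599). At its brightest probe set COL12A1 differed by 0.10 with shCtrl (adjusted p = 0.430) and by -0.88 with shXBP1 (adjusted p = 7.81e-05). Its 5 probe sets disagreed with shCtrl, with differences from -1.14 to 1.60, 1 called higher and 2 lower in MDA-MB-231.

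COL13A1, a transmembrane collagen, read 7.05 and 6.75 in T47D shCtrl, 6.93 and 6.95 in T47D shXBP1, 7.19 and 7.35 in MDA-MB-231 shCtrl and 7.10 and 7.16 in MDA-MB-231 shXBP1. Its brightest probe set differed between the lines by 0.37 with shCtrl (limma adjusted p = 0.0313), a call lost without T47D shCtrl replicate 2 (0.23, adjusted p = 0.187), MDA-MB-231 shCtrl replicate 2 (adjusted p = 0.147) or either T47D shXBP1 array (adjusted p = 0.0541). A dimmer COL13A1 probe set, chosen here after its values were seen, differed by 3.77 with shCtrl and 4.07 with shXBP1, and the mean over the 3 probe sets differed by 1.71 (adjusted p = 2.04e-06). COL7A1 read 7.34 and 7.25 in T47D shCtrl and 7.73 and 7.62 in MDA-MB-231 shCtrl. It was higher in MDA-MB-231 by 0.38 with shCtrl (adjusted p = 0.0133) and 0.52 with shXBP1 (adjusted p = 0.00242), the first lost without MDA-MB-231 shCtrl replicate 1 (adjusted p = 0.0728), without T47D shCtrl replicate 2 (adjusted p = 0.0771) and with probe sets averaged (0.11, adjusted p = 0.304). COL26A1 read between 6.63 and 7.13 and differed by 0.22 with shCtrl, which did not pass.

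**Figure D5:**
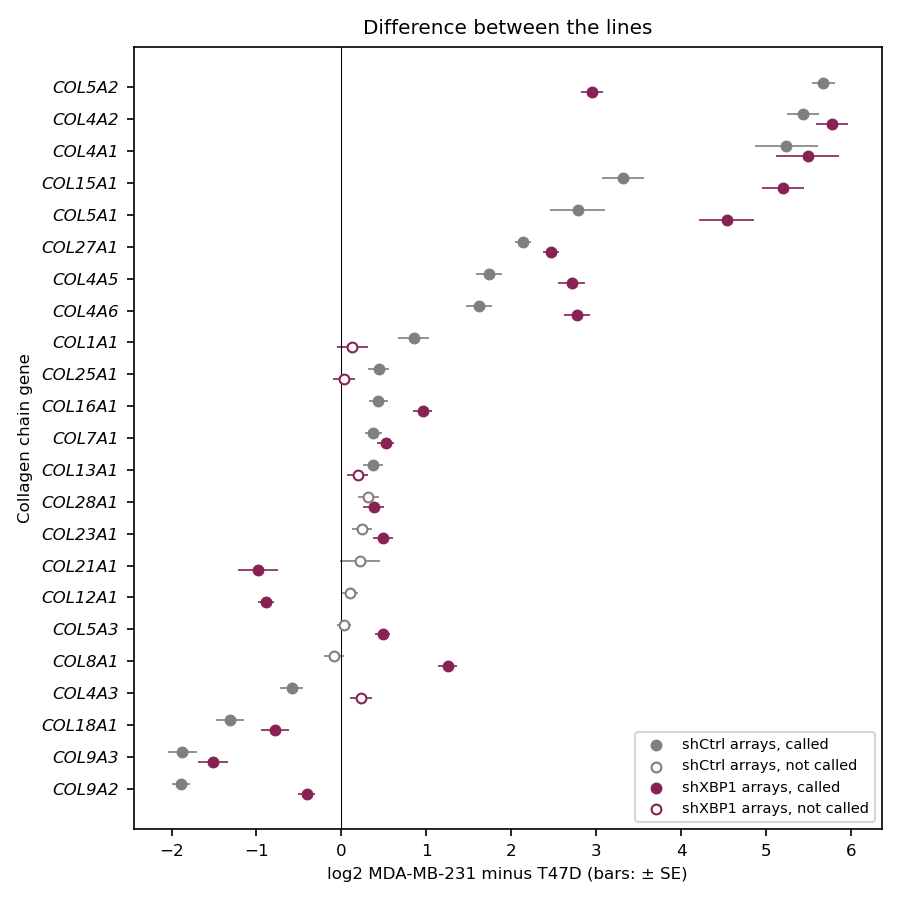
Difference between the lines (log2 MDA-MB-231 minus T47D, bars of 1 SE) with shCtrl (grey) and with shXBP1 (purple) for the 23 collagen chain genes called in at least 1 of the comparisons; filled points were called. Points are the brightest probe sets. COL5A2, COL4A2 and COL4A1 lead with shCtrl at 5.68, 5.43 and 5.24, and the COL5A2 point drops to 2.95 with shXBP1. COL9A2, COL9A3 and COL18A1 lie left of 0 under both hairpins.

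Other genes of the collagen pathway were read beside all genes, of which 29.1% were called in T47D and 17.2% in MDA-MB-231, or 40.6% and 23.8% of genes over 6. Of 25 measured genes that fold, modify and export collagen, 24 of them over 6, 5 rose and 6 fell in T47D (44%), and 3 rose and 3 fell in MDA-MB-231 (24%), with median changes of -0.08 and 0.01. Both shares were near those of all genes over 6. SERPINH1, the collagen-specific chaperone HSP47, fell in both, from 10.09 and 10.14 to 9.46 and 9.41 in T47D (log2 change -0.68, SE 0.09, limma adjusted p = 0.00086) and from 11.31 and 11.34 to 10.77 and 10.65 in MDA-MB-231 (-0.62, SE 0.09, adjusted p = 0.00291). FKBP10, a prolyl isomerase that acts on procollagen, fell in T47D from 7.52 and 7.35 to 6.16 and 5.79 (-1.46, adjusted p = 0.000183). P3H4, part of a lysyl hydroxylase complex, fell in T47D by 1.17 on the log2 scale (adjusted p = 0.000166), and FKBP10 and P3H4 changed by -0.09 and 0.01 in MDA-MB-231. P3H2, a prolyl 3-hydroxylase that acts on type IV collagen, rose by 0.66 in T47D and fell by 0.66 in MDA-MB-231, and with its 2 probe sets averaged neither passed (0.33, adjusted p = 0.202, and -0.38, adjusted p = 0.172).

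Of 16 genes for extracellular processing and cross-linking, 1 rose and 1 fell in T47D (12.5%) and 1 rose in MDA-MB-231 (6.25%), with median changes of -0.07 and 0.12. LOX, which cross-links fibrillar collagen, rose in MDA-MB-231 (log2 change 0.63, limma adjusted p = 0.0261). Of 18 genes for degradation and uptake, 5 fell in T47D (27.8%), and 3 rose and 1 fell in MDA-MB-231 (22.2%), with median changes of -0.14 and 0.15. TIMP1, an inhibitor of collagenases, fell in T47D from 9.66 and 9.67 to 7.96 and 8.25 (-1.56, adjusted p = 9.23e-05), and TIMP2 fell there by 1.49 on the log2 scale (adjusted p = 0.000168). In MDA-MB-231 TIMP2 fell as well (-0.59, adjusted p = 0.0208), a call lost with probe sets averaged (-0.22, adjusted p = 0.170). FAP, a cell surface protease that cuts denatured collagen, rose in MDA-MB-231 from 5.98 and 6.46 to 7.97 and 7.68 (1.60, adjusted p = 0.00174). The LOX call was lost without MDA-MB-231 shCtrl replicate 2 (adjusted p = 0.112), shXBP1 replicate 1 (adjusted p = 0.0945) or shXBP1 replicate 2 (adjusted p = 0.0983), and with probe sets averaged (0.44, adjusted p = 0.0973).

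Of 11 receptors that bind collagen, 2 rose in T47D (18.2%), and 3 rose and 1 fell in MDA-MB-231 (36.4%), with median changes of -0.01 and 0.02. ADGRG1, a receptor of type III collagen, rose in T47D by 0.73 and in MDA-MB-231 by 0.82 (limma adjusted p = 0.00207 and 0.00283). With its probe sets averaged ADGRG1 rose by 0.40 and 0.44 (adjusted p = 0.00891 and 0.0105). ITGA1, a chain of an integrin that favours type IV collagen, rose in MDA-MB-231 by 0.88 (adjusted p = 0.0029). Of 23 matrix partners of collagens, 3 rose and 4 fell in T47D (30.4%), and 4 rose and 2 fell in MDA-MB-231 (26.1%), with median changes of -0.04 and 0.08. FN1, fibronectin, fell in T47D from 9.45 and 9.40 to 8.84 and 8.89 (-0.57, adjusted p = 0.00463) and rose in MDA-MB-231 from 8.63 and 8.52 to 11.35 and 11.13 (2.66, adjusted p = 3.63e-05), with 1.69 over its averaged probe sets. LAMB1, a laminin chain that shares basement membranes with type IV collagen, fell in T47D by 1.38 on the log2 scale (adjusted p = 7.52e-05). LAMB3, a laminin chain of anchoring complexes, rose in MDA-MB-231 by 2.09 (adjusted p = 0.000886).

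Markers of other cell types were read on the same arrays. The summed level of 9 fibroblast markers, with no collagen gene among them, went from 10.2 and 10.1 to 9.54 and 9.51 in T47D and from 9.60 and 9.60 to 10.2 and 10.0 in MDA-MB-231 (log2 of the sum). In T47D 2 of 9 fell, ACTA2 and THY1, and in MDA-MB-231 2 of 9 rose, ACTA2 and FAP. That is 22.2% in each line, near the 29.1% and 17.2% of all genes called. For 4 of the 9 (44.4%) the difference of the knockdown effects was called, each more positive in MDA-MB-231, against 24.8% of all genes. Of the 9 markers 6 had a group mean over 6, and PDGFRA, LUM and POSTN stayed at or under 4.57 in every group mean. The line markers were read too, but XBP1, the target of the hairpin, is itself 1 of the 10 luminal markers. XBP1 was called lower in both lines, and its difference of the knockdown effects was called as well. With XBP1 counted, 1 luminal marker rose and 6 fell in T47D (70%). In MDA-MB-231 2 rose and 1 fell (30%), the fall being XBP1. The difference of the knockdown effects was called for 6 of 10 (60%). The shares of all genes over 6 were 40.6%, 23.8% and 34.3% in the same order. Of 10 mesenchymal markers, 1 rose and 3 fell in T47D (40%), and 2 rose and 1 fell in MDA-MB-231 (30%). For 2 of these 10 (20%) the difference of the knockdown effects was called. With shXBP1, 7 of 10 luminal markers were lower and 10 of 10 mesenchymal markers were higher in MDA-MB-231 than in T47D. Of all genes, 25% were called lower and 25.9% higher there. Of 8 leukocyte and 5 endothelial markers none was called on knockdown in either line, with 2 leukocyte markers at an unadjusted p under 0.05 in MDA-MB-231 and 0 elsewhere (limma). The part of these marker levels in the collagen changes was not tested, and a change in cell make-up cannot be told apart from one in RNA per cell in such samples. The difference between 3' and 5' probe sets of ACTB lay between 0.893 and 1.302 on the 8 arrays, and that of GAPDH between 0.157 and 0.334.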

How the data were processed

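The log2 expression values were deposited as a single table and made with RMA (background correction, quantile normalization and summary per probe set) and the affy package, version 1.30.0, per the submitters' processing notes. The set of arrays that shared a normalization is not stated in the notes. The values, 2.75 to 15.6, were used as deposited and carry no detection calls. RMA shrinks differences between dim levels.

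Of 54675 probe sets, the platform annotation listed 42898; 1801 had several symbols, and 41091 with 1 symbol, controls left out, entered the tests. Comparison with the RefSeq gene table changed 0 symbols and left 42 identifiers unmatched. Each of 19775 genes was represented by its brightest probe set. Of the 43 collagen genes, 8 had 1 probe set and 35 several, 112 in all. COL17A1 had no probe set in the annotation used.

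A group-means model was fitted with limma 3.58.1 in R 4.3.3 (lmFit, eBayes) to all 8 arrays, leaving 4 residual degrees of freedom (7.61 after moderation). Tests were two-sided, with Benjamini-Hochberg adjustment over 19775 genes and calls at an adjusted p under 0.05. With 2 arrays in each group, 0.333 is the smallest p that an exact permutation test could give. The number of arrays limits the precision, with a median SE of 0.119 for a knockdown change. The code was tested on simulated data.

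Values are printed for each collagen gene called on knockdown, or in its difference between lines, or over 6 in a group mean, and for at most 4 called genes of each related list. Genes and lists were chosen with earlier results of these data known. Same-numbered replicates did not deviate together (r from -0.07 to 0.04, above 0 in 3 of 6 pairs of groups), so no pairing was used. The 16 alternatives varied the probe set rule, level filter, normalization, variance model, replicate block and arrays. Conditions without the stress were not analysed here.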

Additional observations from a re-analysis of the deposited data

Results flagged for a closer look

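For 12 collagen chain genes the change on XBP1 knockdown differed between the lines by the test of the difference itself (the MDA-MB-231 change minus the T47D change, limma, adjusted p under 0.05). That is 27.9% of the 43 genes, near the 24.8% of all genes called. Groups of 2 arrays are too small for a test of single arrays that stand apart.

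The change was more positive in T47D for COL5A2 (-2.73), COL21A1 (-1.20) and COL12A1 (-0.98). It was more positive in MDA-MB-231 for COL15A1 (1.88), COL5A1 (1.75), COL9A2 (1.48), COL8A1 (1.33), COL4A6 (1.15), COL4A5 (0.97), COL4A3 (0.82), COL16A1 (0.52) and COL5A3 (0.46). COL5A2, COL12A1 and COL9A2 were also called within each line, in opposite directions. COL8A1 was called higher in MDA-MB-231 and not called in T47D. COL4A3, COL4A5, COL4A6, COL5A1 and COL15A1 were called lower in T47D and not called in MDA-MB-231, where COL4A5 changed by -0.42 (95% interval -0.79 to -0.05).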

How the results depend on the processing

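With 1 array left out, the number of collagen genes called ran from 6 to 12 in T47D, 5 to 7 in MDA-MB-231, 7 to 12 for the difference of the knockdown effects, 15 to 17 between the lines with shCtrl and 16 to 20 with shXBP1. In T47D 6 were called without shCtrl replicate 1 and 7 without shXBP1 replicate 1 or 2, against 11; for the difference, 7 without T47D shXBP1 replicate 2 or MDA-MB-231 shXBP1 replicate 1, against 12. With the replicate block, which the labels do not call a pairing, 12, 5, 11, 18 and 18 genes were called. The count over 6 was 20 with probe sets averaged, 22 to 23 without 1 array, and 33 and 17 at levels of 5 and 7. Of 190 changes and differences of named genes, 104 were called, 68 of them under every alternative run, and 36 lost their call under at least 1. Among the 86 not called, 14 were called under at least 1 alternative and 49 changed sign under at least 1 alternative. The sign reversed for 3 values called in 1 of the 2 fits, each with probe sets averaged: COL4A3 between the lines with shCtrl (-0.59 to 0.061), COL6A1 between the lines with shXBP1 (-0.02 to 0.28) and TIMP3 in T47D (0.19 to -0.34). Probe sets of these genes differ in level and change; the cause was not tested. A fit of only the arrays compared was not run for the difference, which needs all 8. A gene not called is not shown to be unchanged, since changes well above the median SE of 0.119 also went uncalled. In MDA-MB-231 these included COL15A1 (0.67, SE 0.25) and COL4A5 (-0.42, SE 0.16).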
